A study of Mus musculus with 4 samples.

Results

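The 7 genes that encode the subunits of NMDA-type glutamate receptors (Grin1, Grin2a, Grin2b, Grin2c, Grin2d, Grin3a and Grin3b) were followed through single-cell RNA counts of mouse frontal cortex and hippocampus. They were picked by symbol from the 43348 genes in the files. The study asked what the loss of Grin1 does to interneurons born in the medial ganglionic eminence (MGE), an embryonic source of inhibitory neurons, so Grin1 is both a member of the family and the targeted gene. Tissue came from juvenile mice at postnatal day 18 to 20, which carried Nkx2-1-Cre, a recombinase active in the MGE lineage, and the Ai14 reporter, which makes Cre-expressing cells and their descendants red with TdTomato. WT mice (labelled GRIN1-WT) had unmodified Grin1 alleles, and Grin1-null mice (labelled GRIN1-KO) carried Grin1 fl/fl, in which the recombinase deletes part of the gene in that lineage. Red cells of pooled animals were sorted and loaded for 10x Genomics 3′ counting. All groups shared dissociation buffers with blockers of sodium channels (TTX), of NMDA receptors (APV) and of transcription (Actinomycin-D).

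The 4 combinations of region and genotype gave 10 libraries, 3 WT and 2 Grin1-null per region. Of 26987 cells, 26201 were kept, 9037 from WT cortex, 9953 from WT hippocampus, 2755 from Grin1-null cortex and 4456 from Grin1-null hippocampus. Cells of WT cortical libraries 1, 2 and 3 held a median of 7098, 2903 and 6519 UMIs (unique molecular identifiers, each 1 counted RNA molecule), and library totals were 9306756, 14212183 and 28057207. In WT hippocampus the medians were 4411, 1479 and 5741 and the totals 10555408, 8782181 and 20639002. Grin1-null cortical libraries 1 and 2 had medians of 6641 and 8224.5 and totals of 1488601 and 25688337, the smaller from 177 kept cells. The medians of Grin1-null hippocampus were 8839 and 9508 and the totals 3856745 and 47338167. Libraries thus differed in depth between genotypes, and levels below are given as CPM, a gene's UMIs scaled to the total of a library's cells of a class. Grin1 is reported at the level of transcripts counted near their 3′ ends, so levels are compared within a gene and never between genes.

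Several features set libraries apart before any result. Replicate 1 was made with version 2 of the chemistry and the others with version 3, in both genotypes. Of the 26892 distinct barcode sequences, 95 occurred in more than 1 library, which is 0.353% and at most 12 in a pair. Xist, which marks cells of females, was at 0 CPM in the somatostatin cells of replicate 2 in both genotypes and both regions and of Grin1-null hippocampal replicate 1. It reached 92.2 CPM in Grin1-null cortical replicate 1, against 418 and 24.5 CPM in WT cortical replicates 1 and 3 and 544 and 284 CPM in their hippocampal counterparts. The Y-linked Ddx3y was counted in every library, between 20.7 and 112 CPM. Levels of both genes thus differed between libraries of each genotype, and the part of the animals' sex in the results was not tested.

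NMDA receptors are tetramers that pass calcium when glutamate and a co-agonist, glycine or D-serine, are bound and the membrane is depolarised. GluN1, the Grin1 product, binds the co-agonist and is needed in every receptor, whereas the GluN2 subunits bind glutamate and set how fast and how readily the channel opens. GluN2B dominates early in forebrain development and is joined by GluN2A as circuits mature, GluN2D is typical of inhibitory neurons, and GluN3 subunits bind glycine and lower calcium entry.

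Grin1 (ENSMUSG00000026959.9) lies on chromosome 2 from 25291181 to 25319187 on the minus strand of GRCm38, also called mm10, in GENCODE vM21. The exons flanked by loxP sites are not given in the sources used here, and a 3′ count from outside the deleted stretch neither shows nor denies a deletion. The antisense gene Grin1os, which overlaps it, had 20 UMIs in all cells kept against 12062 of Grin1. Grin2a (ENSMUSG00000059003.8, chromosome 16, 9567898 to 9995560, minus strand) overlaps no other annotated gene and had 6141 UMIs. Grin2b (ENSMUSG00000030209.10, chromosome 6, 135713233 to 136173511, minus strand) had 44319 UMIs, and the antisense Gm26653 inside it had 203. Grin2c (ENSMUSG00000020734.9, chromosome 11, 115249169 to 115267243, minus strand) had 367. Grin2d (ENSMUSG00000002771.10, chromosome 7, 45831883 to 45878378, minus strand) had 4385 and overlaps Kdelr1 on the opposite strand, which had 12492. Grin3a (ENSMUSG00000039579.11, chromosome 4, 49661611 to 49845744, minus strand) had 22982 and holds Ppp3r2 and Gm12459 on its own strand, with 217 and 184. Grin3b (ENSMUSG00000035745.4, chromosome 10, 79970715 to 79977190, plus strand) had 24 and overlaps Tmem259 on the opposite strand, with 10094.

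Cells fell into 34 clusters, of which 30 could be named from marker genes, with the subunit genes kept out of the clustering. The interneuron clusters carried Gad1, the GABA-synthesising enzyme, at 388 to 2698 CPM, against 6.07 to 16.8 CPM in clusters of oligodendrocytes. Lhx6, the transcription factor of MGE-born interneurons, ranged from 76.8 to 200 CPM in the same interneuron clusters. The classes compared are SST cells (somatostatin interneurons, with the Th-expressing TH cells), PVALB cells (parvalbumin interneurons) and NGFC (neurogliaform-type interneurons marked by Lamp5). WT and Grin1-null libraries gave 4926 and 1771 SST cells (490 and 277 of them TH cells), 1589 and 577 PVALB cells, and 1334 and 836 NGFC. Other classes that carried subunit RNA were glutamatergic neurons (879 and 104 cells), oligodendrocyte precursors (OPC, 1216 and 160 cells) and astrocytes (308 and 124 cells). TdTomato RNA was counted in 86.2% of WT SST cells other than TH cells, 91.0% of TH cells, 92.6% of PVALB cells and 80.0% of NGFC, and also in 43.0% of WT glutamatergic neurons.

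The makeup of a class differed between groups, in several cases through a single library. Cluster 17 made up 53.0% of WT hippocampal NGFC and 2.94 to 4.76% of NGFC in the other groups, where cluster 4 prevailed. By library it was 99.0% of NGFC in WT hippocampal replicate 2, but 2.84% and 9.80% in replicates 1 and 3. Among PVALB cells, the Pthlh-rich cluster 24 and the Crabp1-rich cluster 31 made up 28.0% and 23.6% in Grin1-null cortex and 8.88% and 2.96% in WT cortex. Cluster 24 was 30.7% in Grin1-null cortical replicate 2 and 3.70% (1 of 27 cells) in replicate 1, against 10.9, 13.5 and 4.84% in WT, whereas cluster 31 was 22.2% and 23.8% against 7.25, 1.98 and 2.81%. Among SST cells, cluster 8 made up 37.1% in WT hippocampus and 6.20 to 12.1% elsewhere, but 59.7% in WT hippocampal replicate 2 and 2.73% and 11.97% in replicates 1 and 3. Cluster 8 had a median of 1177 UMIs per cell and no SST marker among its leading genes. TH cells formed 22.4% of the SST class in Grin1-null cortex and 11% in WT cortex, with 9.09% and 24.4% in Grin1-null replicates 1 and 2 and 15.02, 9.13 and 10.9% in WT. The Chodl-rich cluster 22 was 2.73% and 20.1% in these Grin1-null libraries and 5.27, 11.2 and 3.66% in WT, and cluster 25 was 36.4% of SST cells in WT cortical replicate 1, against 0.930% and 0.549% in replicates 2 and 3. Cluster 5 formed 42.5% of SST cells in Grin1-null and 24.7% in WT hippocampus, with WT replicate 1 at 43.3%. OPC cluster 27 made up 69.9% of OPC in WT hippocampal replicate 2 and 2.70% in replicate 3, and no other library held it. Of these shifts, those of TH cells and of cluster 8 were followed by leaving out either, the latter chosen after seeing the data. The part of the others in class-wide values was not tested.

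Grin1 was lower in every Grin1-null library than in every WT library of its region, in SST, PVALB and NGFC cells alike. SST cells of cortex had 153, 255 and 232 CPM of Grin1 in WT replicates 1, 2 and 3 and 36.7 and 27.9 CPM in Grin1-null replicates 1 and 2. SST cells of hippocampus had 121, 175 and 158 CPM in WT and 20.9 and 22 CPM in Grin1-null. PVALB cells had 111, 212 and 178 CPM in WT cortex and 43.1 and 23.5 CPM in Grin1-null cortex. In each of these 3 sets the lowest WT value lay above the highest Grin1-null value, by the least in cortical PVALB cells. PVALB cells of hippocampus had 102, 164 and 120 CPM against 22.6 and 16.3 CPM. NGFC of hippocampus had 115, 111 and 134 CPM against 33.6 and 15.6 CPM, and NGFC of cortex 114, 183 and 168 CPM against 36.3 CPM in the 1 Grin1-null library with at least 10 such cells. Grin1 counts were above 0 in each library named here.

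**Figure D1:**
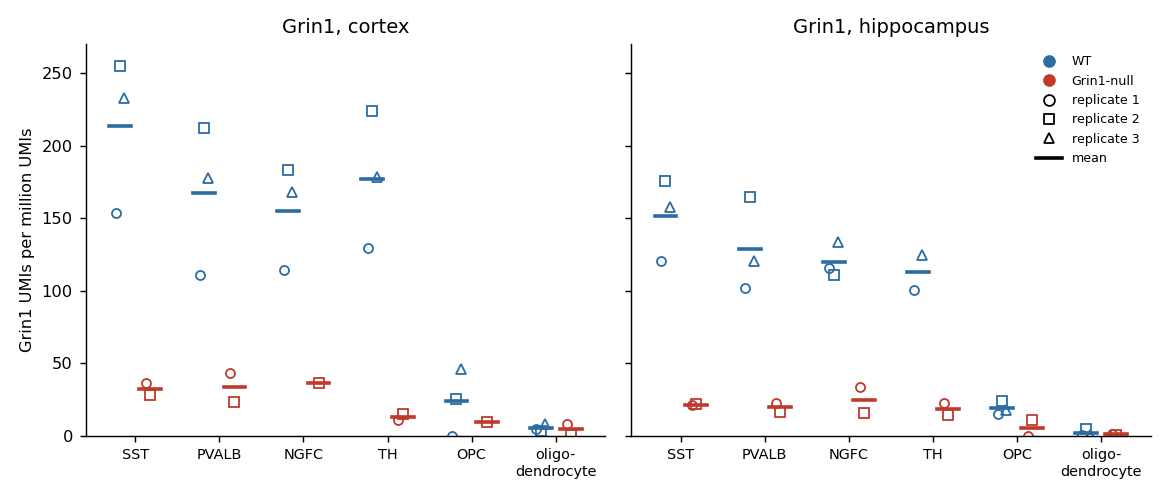
Grin1 level in CPM per library, by cell class (x axis), in cortex and hippocampus panels, with WT in blue, Grin1-null in red, marker shapes for replicates and bars for group means. In SST cells the Grin1-null libraries lie between 20.9 and 36.7 CPM and the WT libraries between 121 and 255 CPM.

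The means of Grin1 in SST cells were 32.3 ± 6.21 CPM in Grin1-null cortex (SD, n = 2) and 214 ± 53.3 CPM in WT cortex (SD, n = 3). Of all 12844 genes tested in this class, Grin1 had the smallest p in both regions, yet it missed the threshold used throughout (adjusted p under 0.01 and a log2 change of at least 0.144). The log2 change in edgeR, with replicate as a block, was -2.71 in cortex (SE 0.309, adjusted p = 0.0492) and -2.76 in hippocampus (SE 0.309, adjusted p = 0.0420). These are 0.153 and 0.148 of the WT level. In PVALB cells it was -2.61 in cortex (SE 0.412, adjusted p = 0.0265) and -2.92 in hippocampus (SE 0.423, adjusted p = 0.0282). NGFC of hippocampus had -2.38 (SE 0.413, adjusted p = 0.146 in edgeR) and NGFC of cortex -1.98 (SE 0.537, adjusted p = 0.711 in edgeR), where the lone Grin1-null library is assumed to vary like the others. Without the replicate block the adjusted p was 0.0296 and 0.0260 in SST cells, 0.0312 and 0.0853 in PVALB cells, and 1 and 0.954 in NGFC of cortex and hippocampus in edgeR.

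The call on Grin1 changed with the processing and with single libraries, while its direction did not. DESeq2 placed it past the threshold in SST cells (adjusted p = 4.28e-12 in cortex and 3.71e-13 in hippocampus) and in PVALB cells (0.000211 and 2.59e-05), though not in NGFC of cortex (0.808), and it gave no adjusted p in NGFC of hippocampus. With no filter on low counts, edgeR gave adjusted p = 4.31e-13 and 3.9e-13 in SST cells, 1.5e-09 and 2.2e-10 in PVALB cells, and 7.87e-06 in NGFC of hippocampus. Leaving out Grin1-null cortical replicate 1 gave -2.77 in hippocampal SST cells (adjusted p = 0.00817 in edgeR), -3.07 in cortical PVALB cells (0.00697) and -2.96 in hippocampal PVALB cells (0.00629). Leaving out WT hippocampal replicate 2 gave -2.72 in cortical SST cells (adjusted p = 0.00179 in edgeR), -2.57 in cortical PVALB cells (0.00219) and -2.34 in hippocampal NGFC (0.00792). Leaving out Grin1-null hippocampal replicate 1 gave -3.05 in hippocampal NGFC (adjusted p = 0.00480 in edgeR). Over all alternatives tried, the log2 change ran from -3.07 to -2.20 in cortical and from -2.88 to -2.54 in hippocampal SST cells, and from -3.07 to -1.59 and from -3.20 to -2.20 in PVALB cells. The adjusted p reached 0.727, 1, 0.908 and 1 at the most in these 4 sets. For NGFC of cortex the threshold was reached under none of the 22 alternatives, which gave log2 changes from -2.16 to -1.44 and an adjusted p of 0.0753 at the least.

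Within a replicate, and so within a chemistry, the log2 difference in Grin1 (CPM with 1 added) was negative in each pair of interneuron values. It was -2.04 and -3.15 in cortical SST cells of replicates 1 and 2, and -2.47 and -2.94 in hippocampal SST cells. PVALB cells had -1.34 and -3.12 in cortex and -2.12 and -3.25 in hippocampus. NGFC had -1.75 and -2.76 in hippocampus and -2.30 in replicate 2 of cortex. The difference was smaller in replicate 1 in all 5 class and region pairs with both replicates. Regions could not be separated by the size of the difference: the change in hippocampus minus that in cortex was -0.05 in SST, -0.31 in PVALB and -0.41 in NGFC, and in edgeR none passed. Nor did classes differ past the threshold, with 0.45 for NGFC minus SST (SE 0.199, adjusted p = 0.656 in edgeR).

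Counted by cells, Grin1 was found in 64.8% of 4926 WT SST cells and in 21.5% of 1771 Grin1-null SST cells, at median depths of 6259 and 14211 UMIs. Mature oligodendrocytes, taken as the background class, had Grin1 in 1.14% of WT cells (median 3316.5 UMIs) and 0.659% of Grin1-null cells (median 8140). The Grin1-null interneuron share lay far above that background. With every cell thinned to 1000 UMIs, the shares were 20.7% and 2.25% in SST cells (313 and 83 shallower cells left out) and 0.352% and 0.0397% in oligodendrocytes (628 and 64 left out). PVALB cells had 62.2% in WT and 22.7% in Grin1-null (medians of 6802 and 14370 UMIs), or 14.9% and 2.28% after thinning, with 23 and 7 cells left out. NGFC had 38.7% and 19.5% (medians of 3456.5 and 13149.5 UMIs), or 12.2% and 1.82% after thinning, with 149 and 11 left out.

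Each of the 6 SST clusters and the TH cluster had a lower pooled Grin1 level in Grin1-null than in WT cells, in both regions. Some of these pools are small and uneven. Cluster 25 had 10 Grin1-null cortical cells, 8 of them from replicate 1, and cluster 22 had 21 Grin1-null hippocampal cells. Differences inside clusters were not tested. TH cells of cortex had 129, 224 and 178 CPM of Grin1 in WT and 11.2 and 15.1 CPM in Grin1-null. In the Cbln4-rich SST cluster 5 the pooled level was 256 CPM in WT cortex and 61.8 CPM in Grin1-null cortex, the highest Grin1-null cortical value of the named SST, PVALB and NGFC clusters. The Crh-rich cluster 10 had 212 and 11.3 CPM, and the Chodl-rich cluster 22 had 159 and 34.8 CPM. PVALB clusters 3, 24 and 31 had 183, 163 and 143 CPM in WT cortex and 27.9, 23.1 and 21.5 CPM in Grin1-null cortex.

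Grin1 was also lower in sorted glutamatergic neurons of cortex, with 43.7 CPM in Grin1-null replicate 2 (33 UMIs in 65 cells) against 141, 241 and 177 CPM in WT. This rests on 1 Grin1-null library and was not tested. In the paper, Grin1 appeared reduced in the MGE subsets but not in glutamatergic neurons with Slc17a7. In hippocampus, Grin1-null replicate 2 had 98 CPM (21 UMIs in 37 cells), between the 51.4 CPM of WT replicate 2, which is 1 UMI, and the 219 CPM of WT replicate 3. TdTomato RNA was counted in 84.6% of Grin1-null and 43.0% of WT glutamatergic neurons, at median depths of 9372.5 and 1027 UMIs. The parts of depth and of reporter-positive cells in the Grin1 values were not tested. OPC had low levels, 0, 25.6 and 46.1 CPM in WT cortex and 15.2, 23.8 and 17.5 CPM in WT hippocampus. In Grin1-null OPC the values were 9.50 CPM in cortex and 0 and 10.7 CPM in hippocampus, and the changes of -1.82 and -1.24 missed the threshold (adjusted p = 0.690 and 0.699 in edgeR).

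In WT cells the order of Grin1 levels was SST, glutamatergic, TH, PVALB and NGFC, and none of these neighbours differed beyond the spread between libraries. SST cells ranged over the 6 WT libraries from 121 through a median of 167 to 255 CPM, PVALB cells from 102 through 142 to 212 CPM, and NGFC from 111 through 125 to 183 CPM. OPC came next with 21.4 ± 15.1 CPM (SD, n = 6), clear of NGFC with no overlap, and oligodendrocytes had 3.68 ± 2.88 CPM (SD, n = 6). A fit that compares classes inside each library, and so removes the spread between libraries, separated them further. It counts the 2 regions of a replicate as separate libraries, though they share a replicate number and chemistry. The same holds for the other class differences below that come from this fit. There Grin1 was lower in NGFC than in SST cells by a log2 difference of -0.40 (SE 0.0893, adjusted p = 0.000687 in edgeR), lower in 6 of 6 WT libraries. The difference of PVALB minus SST was -0.31 (SE 0.0853, adjusted p = 0.00558 in edgeR), also lower in 6 of 6. It lost its call without WT cortical replicates 1, 2 or 3 (adjusted p = 0.0177, 0.0129 and 0.0204), without WT hippocampal replicate 3 (0.0687) and with the subunit genes allowed in the clustering (0.0101), the adjusted p ranging from 0.00054 to 0.0687 over 22 alternatives.

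Grin2a, which encodes the mature-type GluN2A subunit, had its highest WT mean in NGFC. Over the 6 WT libraries NGFC had from 122 through a median of 202 to 271 CPM, SST cells from 23.2 through 53.1 to 69.8 CPM and PVALB cells from 8.76 through 20.5 to 31.1 CPM. The ranges of NGFC and SST cells did not overlap, and those of SST and PVALB cells did. Glutamatergic neurons had 85.8 ± 40.5 CPM (SD, n = 5), between NGFC and SST cells, and differed from SST cells by less than that spread. Their range reached 156 CPM and so overlapped that of NGFC, and in Grin1-null hippocampal replicate 2 they had 163 CPM (37 cells) against 126 CPM in NGFC. The log2 difference was 1.99 for NGFC minus SST (SE 0.0886, adjusted p = 1.22e-17 in edgeR), 3.29 for NGFC minus PVALB (SE 0.123, adjusted p = 4.42e-19) and -1.30 for PVALB minus SST (SE 0.134, adjusted p = 4.61e-09). All 3 kept their calls under each of 22 alternatives.

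TH cells stood apart from the SST clusters they are grouped with. They had 0, 1.94 and 4.08 CPM of Grin2a in WT cortex and 0 CPM in both WT hippocampal libraries with at least 10 TH cells. Grin2a was found in 1.22% of WT TH cells (6 of 490), against 26.2% of the SST class, 13.5% of PVALB cells, 46.6% of NGFC and 0.201% of oligodendrocytes, at median depths of 6519.5, 6259, 6802, 3456.5 and 3316.5 UMIs. After thinning to 1000 UMIs these were 0.205%, 5.87%, 2.43%, 18.1% and 0.0827%. The thinned TH share is 1 of 488 cells (95% exact interval 0.00519 to 1.14%), too few to compare with the background. Before thinning, TH cells (interval 0.451 to 2.65%) lay above oligodendrocytes (0.101 to 0.360%), at a greater depth, and below the other interneurons. Pooled WT levels in cortex ran from 49.3 to 86.3 CPM in the 6 SST clusters, against 2.62 CPM in the TH cluster 12 (95% exact Poisson interval 1.06 to 5.41). In the Pthlh-rich PVALB cluster 24, Grin2a had 4.59 CPM in WT cortex (interval 1.25 to 11.7) and 37.0 CPM in WT hippocampus (interval 21.9 to 58.5), from 4 and 18 UMIs. Its libraries ran from 2.84 to 9.82 CPM in cortex and from 16.7 to 64.0 CPM in hippocampus, whereas those of PVALB cluster 3 ran from 19.4 to 33.0 CPM and from 4.49 to 15.2 CPM. The intervals cover counting error alone, and these cluster differences were not tested. NGFC clusters 4 and 17 had 200 and 187 CPM in WT hippocampus, where 512 of the 551 cells of cluster 17 came from replicate 2 and cluster 4 came mostly from replicates 1 and 3, so clusters and libraries cannot be told apart.

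Between genotypes, Grin2a of SST cells was 40.0 and 24.1 CPM in Grin1-null cortex and 49.6, 58.2 and 69.8 CPM in WT cortex, with no overlap. In hippocampus the Grin1-null values of 19.3 and 22.8 CPM also lay below the WT values of 23.2, 54.7 and 51.6 CPM, if narrowly. PVALB cells of cortex had 7.19 and 8.34 CPM against 18.3, 23.4 and 31.1 CPM, again without overlap, though the first value is 2 UMIs in 27 cells (95% exact Poisson interval 0.870 to 26.0 CPM), and those of hippocampus 11.3 and 5.36 CPM against 8.76, 18.0 and 22.7 CPM, with overlap. NGFC of cortex had 113 CPM in the 1 Grin1-null library against 160, 271 and 258 CPM, and NGFC of hippocampus 139 and 126 CPM against 122, 183 and 220 CPM. None of these differences passed the threshold. The log2 changes in edgeR were -0.84 and -0.87 in SST cells of cortex and hippocampus (adjusted p = 0.898 and 0.445), -1.39 and -1.24 in PVALB cells (0.425 and 0.592) and -1.05 and -0.23 in NGFC (0.711 and 0.779). TH cells, with next to no Grin2a, formed a larger share of the SST class in Grin1-null cortical replicate 2 (24.4%) than in WT cortex (9.13 to 15.02%). With TH cells left out, the change in SST cells was -0.68 in cortex and -0.82 in hippocampus (adjusted p = 0.918 and 0.411 in edgeR). Inside SST clusters of cortex, Grin1-null libraries had 25.7 and 36.9 CPM in cluster 2 and 33.8 and 71.8 CPM in cluster 5, against WT ranges of 49.1 to 79.7 and 77.4 to 92.1 CPM.

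Grin2b, which encodes the GluN2B subunit of young circuits, was even across interneuron classes. Over the 6 WT libraries it ran from 388 through a median of 501 to 816 CPM in SST cells, from 353 through 476 to 933 CPM in PVALB cells and from 320 through 430 to 753 CPM in NGFC. TH cells had 495 ± 139 CPM and glutamatergic neurons 768 ± 284 CPM (SD, n = 5 each). Neighbouring values among these neuronal classes differed by less than the spread, and all lay above astrocytes, at 35.7 ± 36.7 CPM (SD, n = 6), with no overlap. Within libraries, the log2 differences were -0.12 for NGFC minus SST, -0.11 for NGFC minus PVALB and -0.01 for PVALB minus SST, with standard errors of 0.0686, 0.0719 and 0.0663, and in edgeR none passed. The highest WT library was replicate 2 in all 3 classes and both regions, the replicate with the fewest UMIs per cell. Over the named interneuron clusters, pooled levels in WT cortex ran from 266 CPM in the Chodl-rich SST cluster 22 (210 to 325 CPM in 3 libraries) to 663 CPM in the shallow SST cluster 8 (676 to 697 CPM in the 2 libraries with at least 10 such cells). Libraries contributed unequally to these pools, and differences between clusters were not tested.

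**Figure D2:**
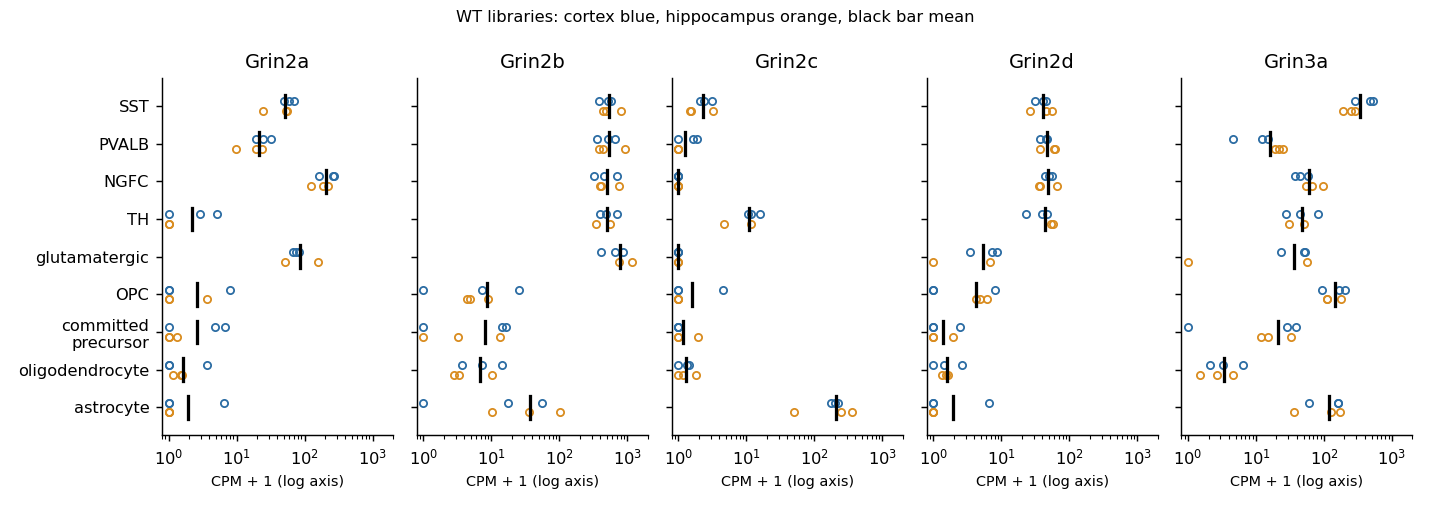
WT levels of Grin2a, Grin2b, Grin2c, Grin2d and Grin3a per library (CPM with 1 added, log axis) in 9 cell classes, cortex in blue and hippocampus in orange, with black bars for class means. The highest class mean of Grin2a is in NGFC (122 to 271 CPM), of Grin3a in SST cells (187 to 516 CPM) and of Grin2c in astrocytes (49.7 to 354 CPM).

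In Grin1-null cells, Grin2b of SST cells was 373 and 289 CPM in cortex and 391 and 346 CPM in hippocampus, below the WT values of 388, 569 and 513 CPM and of 488, 816 and 441 CPM. In PVALB cells it was 334 and 316 CPM in cortex against 353, 652 and 509 CPM, and 485 and 382 CPM in hippocampus against 379, 933 and 442 CPM, where the groups overlapped. NGFC had 260 CPM against 320, 692 and 446 CPM in cortex, and 267 and 273 CPM against 414, 753 and 389 CPM in hippocampus. The Grin1-null libraries thus lay lowest in all but hippocampal PVALB cells. The log2 changes in edgeR were -0.62 and -0.67 in SST cells, -0.68 and -0.43 in PVALB cells and -1.29 and -0.97 in NGFC, and none passed the threshold. The adjusted p in NGFC was 0.711 in cortex and 0.271 in hippocampus (edgeR). With TH cells left out, the changes in SST cells were -0.63 and -0.68. Without SST cluster 8, an alternative chosen after seeing the data, they were -0.58 and -0.59, and none passed in edgeR.

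Grin2c, best known from cerebellar granule cells and astrocytes, was an astrocyte transcript here. Astrocytes had from 49.7 through a median of 211 to 354 CPM over the 6 WT libraries, and Grin2c was found in 34.1% of 308 cells (median 2146 UMIs). TH cells were the interneurons that carried it, with 14.7, 9.72 and 10.9 CPM in WT cortex and 3.73 and 10.7 CPM in WT hippocampus. It was found in 34 of 490 WT TH cells (6.94%), against 0.128% of oligodendrocytes, at medians of 6519.5 and 3316.5 UMIs. SST cells as a class, TH cells included, had 1.30 ± 0.738 CPM (SD, n = 6). Of the 36 and 10 Grin2c UMIs of this WT class in cortex and hippocampus, 31 and 7 were in TH cells. No WT NGFC of 1334 had a UMI. With 3 counts as the limit that allows up to 0.225% of cells with a UMI at this depth, which does not limit the cells that express the gene. Grin1-null TH cells had 11.2 and 5.34 CPM in cortex and 0 and 2.55 CPM in hippocampus. These rest on few UMIs, 1 and 12 in cortex and 0 and 3 in hippocampus, and the 0 (16 cells) allows up to 16.9 CPM with 3 counts as the limit, so the genotypes cannot be told apart. Grin2c failed the filter on low counts in each fit and was not tested.

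Grin2d, which encodes the slow GluN2D subunit, marked interneurons as a group. Over the 6 WT libraries it ran from 34.6 through 46.4 to 65.6 CPM in NGFC, from 35.7 through 45.5 to 60.2 CPM in PVALB cells and from 25.6 through 42.3 to 55.1 CPM in SST cells. TH cells had 43.2 ± 13.6 CPM, and glutamatergic neurons lay below all 4 without overlap, at 4.43 ± 3.12 CPM (SD, n = 5 each). No class difference among interneurons passed, with log2 values of 0.23, 0.04 and 0.18 in edgeR for NGFC minus SST, NGFC minus PVALB and PVALB minus SST. Grin1-null levels overlapped WT levels in SST cells of both regions, at 27.8 and 34.8 CPM against 30.03, 39.7 and 44.9 CPM in cortex and at 32.2 and 47.0 CPM against 45.3, 25.6 and 55.1 CPM in hippocampus. With the replicate block, the largest Grin2d changes with genotype were 0.23 in cortical PVALB cells and -0.35 in hippocampal NGFC. In the latter, Grin1-null replicates 1 and 2 had 12.6 CPM (9 UMIs) and 52.4 CPM, against 34.6, 36.6 and 65.6 CPM in WT. Without the block the largest were -0.41 in hippocampal and 0.27 in cortical NGFC. The 1 Grin1-null library of cortical NGFC had 59.9 CPM, against 42.8 to 55.5 CPM in WT. Grin2d passed in none of these fits in edgeR. It was found in 22.8% of WT SST cells, 27.4% of PVALB cells, 18.9% of NGFC and 0.238% of oligodendrocytes.

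Grin3a, which encodes the glycine-binding GluN3A subunit of juvenile circuits, was highest in SST cells, whereas Grin2a was highest in NGFC, and both were lowest in PVALB cells among the 3 classes. Over the 6 WT libraries it ran from 187 through a median of 288 to 516 CPM in SST cells, from 35.9 through 55.1 to 96.2 CPM in NGFC and from 3.66 through 16.1 to 23.9 CPM in PVALB cells, with no overlap. The log2 difference was -4.46 for PVALB minus SST (SE 0.168, adjusted p = 9.78e-19 in edgeR), -2.58 for NGFC minus SST (SE 0.152, adjusted p = 1.02e-14) and 1.87 for NGFC minus PVALB (SE 0.261, adjusted p = 1.09e-06). All 3 kept their calls under each of 22 alternatives. It was found in 66.7% of WT SST cells, 19.1% of NGFC, 7.55% of PVALB cells and 0.751% of oligodendrocytes, or in 29.8%, 6.24%, 1.53% and 0.207% after thinning. Glia carried it too: OPC had 144 ± 45.6 CPM and astrocytes 118 ± 58.2 CPM (SD, n = 6 each), next below SST cells in the order, and the range of OPC overlapped that of SST cells.

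SST clusters differed in Grin3a. In WT cortex the Myh13-rich cluster 2 had 703 CPM (95% exact Poisson interval 684 to 722), cluster 5 had 571 CPM (552 to 591) and the Chodl-rich cluster 22 had 281 CPM (262 to 301), while TH cells had 46.1 CPM (38.3 to 55.0). Each of the 6 SST clusters was lower in WT hippocampus than in WT cortex, with 405 CPM in cluster 2 and 200 CPM in cluster 5. Libraries contributed unequally to these pools, and 498 of the 548 WT hippocampal cells of cluster 8 came from replicate 2. These intervals cover counting error alone, not the spread between libraries.

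**Figure D3:**
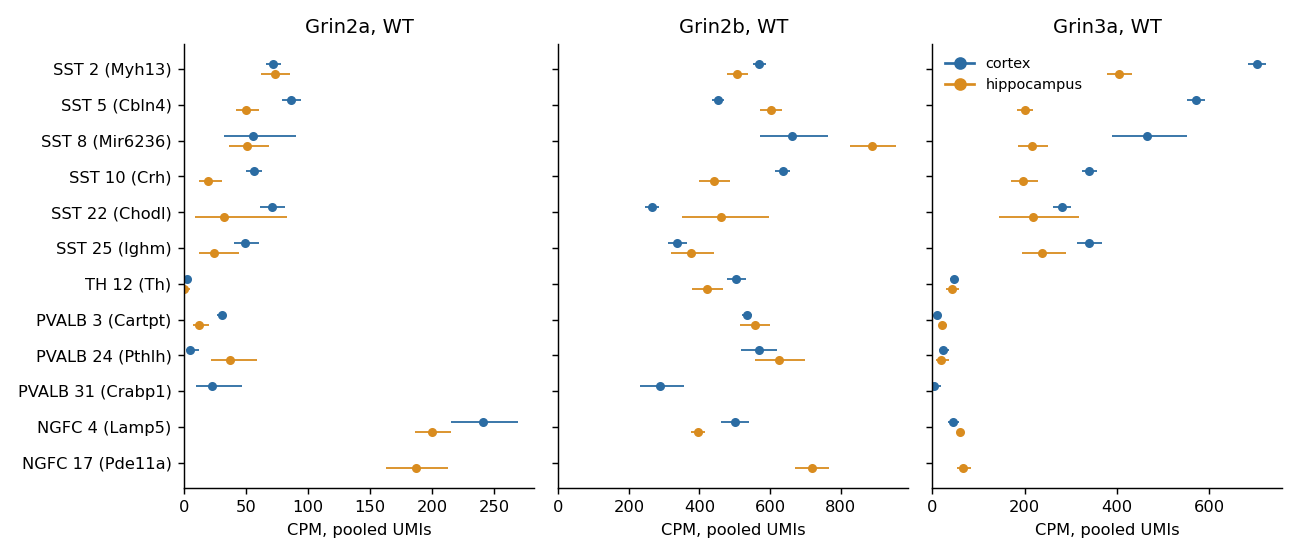
Pooled WT levels (CPM) of Grin2a, Grin2b and Grin3a in interneuron clusters with at least 20 cells, cortex and hippocampus side by side, with 95% exact Poisson intervals. Grin3a is highest in SST cluster 2 (703 CPM in cortex) and Grin2a is lowest in the TH cluster 12 (2.62 CPM in cortex).

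With genotype, Grin3a of SST cells overlapped between groups, at 452 and 300 CPM in Grin1-null against 286, 476 and 516 CPM in WT cortex, and at 142 and 236 CPM against 187, 289 and 245 CPM in hippocampus. The Grin3a-rich cluster 2 made up 31.8% and 15.4% of cortical SST cells in these Grin1-null libraries and 6.23, 32.2 and 40.1% in the WT ones, and its part in the class values was not tested. Inside cluster 2 of cortex the Grin1-null libraries had 679 and 684 CPM and the WT libraries 587 to 735 CPM. Hippocampal PVALB cells had 38.5 and 26.1 CPM in Grin1-null and 20.4, 18.0 and 23.9 CPM in WT, the 1 interneuron group in which it was higher in all Grin1-null libraries. Hippocampal NGFC had 47.6 and 50.4 CPM against 96.2, 64.8 and 53.0 CPM, lower without overlap. Cortical PVALB cells had 0 (27 cells) and 17.3 CPM in Grin1-null and 3.66, 14.1 and 11.2 CPM in WT, with means of 8.65 and 9.65 CPM. The change fitted there in edgeR ran against these means, since it was positive with the replicate block and also without it (0.36). The log2 changes were -0.01 and -0.25 in SST cells, 0.43 and 0.57 in PVALB cells, -0.83 and -0.64 in NGFC and -0.92 and -0.81 in OPC, and in edgeR none passed. Grin3b, the gene of GluN3B, known from motor neurons, was near the limit of detection, with UMIs in 9 of 4926 WT SST cells (0.183%). It failed the filter on low counts and was not tested.

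Regions were compared within WT, with libraries paired by replicate number. In replicate 3 the Xist level of SST cells was 24.5 CPM in cortex and 284 CPM in hippocampus, and whether paired libraries hold the same mix of animals was not tested. Grin3a of SST cells was lower in hippocampus in each of the 3 replicates, by log2 differences of -0.61, -0.72 and -1.08 (CPM with 1 added). In edgeR the change was -0.88 (SE 0.268, adjusted p = 0.169), which missed the threshold. It passed under 1 of 23 alternatives, no filter on low counts, with -0.92 (adjusted p = 0.00378). Without replicate 3 of WT cortex or of WT hippocampus it was -0.71 and -0.74 (adjusted p = 0.559 and 0.527 in edgeR). Grin1 of SST cells was lower in hippocampus in each replicate as well, at -0.56 in edgeR (SE 0.228, adjusted p = 0.342). Without replicate 3 of either region this was -0.49 and -0.52 (adjusted p = 0.665 and 0.633 in edgeR), and without SST cluster 8, an alternative chosen after seeing the data, -0.49 (adjusted p = 0.484). In PVALB cells Grin3a was higher in hippocampus, at 1.01 (SE 0.49, adjusted p = 0.722 in edgeR).

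Counted over the family, 5 of the 7 genes had enough counts to be tested in the interneuron fits and 2 (Grin1 and Grin3a) in the OPC fit. For Grin1-null against WT, 0 of 5 passed in SST cells of cortex, where 0.0% of all genes tested did and 666 genes had an unadjusted p under 0.05 (DESeq2 called 3 genes, Grin1, Vip and Akr1c18). In SST cells of hippocampus 0 of 5 passed, beside 0.0% of all genes, with 1405 genes under that p and 13 called by DESeq2. PVALB cells gave 0 of 5 beside 0.0412% in cortex and 0 of 5 beside 0.0% in hippocampus, with 654 and 779 genes under that p and 14 and 2 called by DESeq2, the latter Grin1 and S100a6. NGFC gave 0 of 5 beside 0.0% in both regions, with 634 and 1207 genes under that p and 0 and 20 called by DESeq2. OPC gave 0 of 2 beside 0.0677% in cortex and 0.163% in hippocampus, with 687 and 775 genes under that p, where DESeq2 called 0 and 2 genes, the latter Lars2 and Tuba1a. The genes named beside a DESeq2 count, Grin1 apart, were chosen after their values were seen. The p-values measure the spread between libraries of pooled animals.

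For the difference of that change between regions, 0 members passed in each of the 4 class fits, as did 0.0% of all genes, with 198, 205, 78 and 117 genes under an unadjusted p of 0.05 in SST, PVALB, NGFC and OPC (DESeq2 called 0, 0, 1 and 0, the 1 being Vip). Between WT regions, 0 of 5 passed in SST cells (0.358% of all genes in edgeR), 0 of 5 in PVALB cells (0.165%), 0 of 5 in NGFC (0.041%) and 0 of 2 in OPC (0.325%). There 1555, 710, 467 and 510 genes had an unadjusted p under 0.05, and DESeq2 called 218, 48, 17 and 19. Between WT classes, by contrast, 3 of 5 passed for NGFC minus SST, with Grin2a higher and Grin1 and Grin3a lower, beside 25.5% of all genes. For NGFC minus PVALB 2 of 5 passed, Grin2a and Grin3a, both higher, beside 22.3%. For PVALB minus SST 3 of 5 passed, Grin1, Grin2a and Grin3a, all lower, beside 21.5%. Since 21.5 to 25.5% of genes passed in these contrasts, the counts themselves say little about the family. For the difference of the genotype change between classes, 0 of 5 passed in each, beside 0.0% of genes for NGFC minus SST, 0.143% for NGFC minus PVALB and 0.0923% for PVALB minus SST in edgeR, with 855, 1436 and 1079 genes under that p and 1 (Vip), 30 and 6 called by DESeq2.

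The balance of GluN2 subunits was followed as the share of Grin2a among Grin2a and Grin2b UMIs of a library, a ratio of 3′ counts that is compared only between classes and groups. In WT it was 29.4 ± 7.17% in NGFC, 8.98 ± 2.96% in SST cells and 3.87 ± 1.57% in PVALB cells (SD, n = 6 each). NGFC exceeded SST cells by 20.5 percentage points, higher in 6 of 6 libraries, and PVALB cells by 25.6 points, also in 6 of 6. PVALB cells lay below SST cells by a difference of -5.11 points, in 6 of 6. The two-sided exact sign-flip test gave p = 0.03125 for each of the 3 pairs, the smallest it can give with 6 libraries, and 0.03125 after adjustment over them. Leaving out any 1 WT library gave an exact p = 0.0625, the smallest that 5 libraries allow, with differences from 19.4 to 21.9, from 24.4 to 27.1 and from -5.68 to -4.85 points. The test counts the 2 regions of a replicate as independent, though they share a replicate number and chemistry. With regions averaged within a replicate, an alternative chosen after seeing the data, the exact p was 0.25 for each pair, the smallest that 3 values allow, and the calls were lost.

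**Figure D4:**
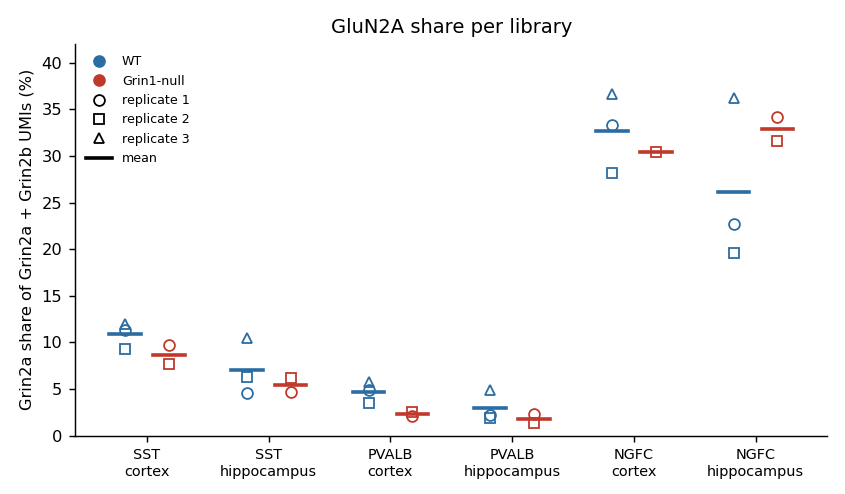
Share (%) of Grin2a among Grin2a and Grin2b UMIs per library, by class, region and genotype, with bars for means. WT NGFC lie between 19.6% and 36.7%, above WT SST cells (4.53% to 12.0%) and PVALB cells (1.90% to 5.75%).

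Between genotypes the Grin2a share overlapped except in cortical PVALB cells, where Grin1-null libraries had 2.11% (2 Grin2a UMIs) and 2.57% and WT libraries 4.94%, 3.47% and 5.75%. Cortical SST cells had 9.68% and 7.68% against 11.3%, 9.27% and 12.0%. Hippocampal SST cells had 4.71% and 6.17% against 4.53%, 6.29% and 10.5%. Hippocampal NGFC had 34.1% and 31.6% against 22.7%, 19.6% and 36.2%, the 1 set in which the Grin1-null mean was above the WT mean. Cortical NGFC had 30.4% in 1 Grin1-null library against 33.3%, 28.1% and 36.7%. The two-sided exact permutation test gave an adjusted p of 0.8 in each of the 6 sets, with a smallest possible unadjusted p of 0.1, or 0.25 for cortical NGFC, so the design could not have reached 0.05. This test does not pair libraries by replicate. Within replicates 1 and 2, Grin1-null shares were higher in both pairs of hippocampal NGFC and lower in both of cortical SST and PVALB cells. The 1 pair of cortical NGFC, in replicate 2, had 30.4% in Grin1-null against 28.1% in WT. Pairs of hippocampal SST and PVALB cells went both ways. The difference in hippocampal SST cells was -1.66 points and became 0.0288 points without WT replicate 3.

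Genes whose levels ran most like each subunit were sought over 49 profiles (named WT clusters by region with at least 50 cells) among 12538 genes. The profiles share libraries and the split of neurons from glia, so a high r is a description. Grin1 was closest to Sptbn4, an axonal spectrin (Pearson r = 0.978), to Eef1a2, a neuronal elongation factor (0.977), and to Syp, the vesicle protein synaptophysin (0.972). Among the genes closest to Grin2a were Sphkap (0.908) and Il34 (0.892). Grin2b was closest to Syt1, a calcium sensor of vesicle release, Snhg11 and Napb (0.973 each). Grin2c ran with Atp13a4 (0.906), RP23-152I6.3 (0.902) and Cyp2d22 (0.891), and Grin2d with A530058N18Rik (0.953), Fam131c (0.953) and Dlx5, an interneuron transcription factor (0.950). Grin3a was closest to Ntm, a neuronal adhesion molecule (0.903), Adcyap1r1, the PACAP receptor (0.889), and A730017C20Rik (0.887). Among the members, Grin1 and Grin2b ran together most closely (0.953), Grin2b with Grin2d at 0.872, Grin1 with Grin2a at 0.830 and with Grin3a at 0.758, whereas Grin2c ranged from -0.212 to 0.155 with the others.

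Genes that act with NMDA receptors were taken as 4 lists, 54 genes in all: 15 scaffolds, 14 kinases and phosphatases, 13 trafficking genes and partners, and 12 genes of glycine and D-serine handling. Of these 48 were tested between classes. For NGFC minus SST 23 passed, 14 higher and 9 lower, for NGFC minus PVALB 16 (9 higher and 7 lower) and for PVALB minus SST 15 (6 higher and 9 lower). Since 25.5%, 22.3% and 21.5% of all genes passed in these contrasts, the counts are a description of the lists.

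Of 14 scaffolds tested, 6 were higher and 0 lower for NGFC minus SST, with a list median of 0.27 on the log2 scale, against -0.01 for all genes. For NGFC minus PVALB 1 was higher (Homer2) and for PVALB minus SST 3, with 0 lower in either. Homer2, which ties receptors to metabotropic signalling, was at 93.3 ± 23.5 CPM in NGFC, 22.5 ± 6.51 CPM in SST cells and 24.2 ± 2.22 CPM in PVALB cells (SD, n = 6 each). The log2 difference was 2.07 for NGFC minus SST (SE 0.116, adjusted p = 2.95e-15 in edgeR). Dlgap1, a partner of PSD-95, was higher in PVALB than in SST cells by 0.65 (SE 0.0844, adjusted p = 3.57e-07 in edgeR), with Dlgap2 at 0.61.

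Kinases and phosphatases split: 3 of 14 were higher and 5 lower for NGFC minus SST, and 0 higher and 4 lower for PVALB minus SST. Camk2n1, an inhibitor of calcium/calmodulin kinase II, was at 644 ± 215 CPM in SST cells, 310 ± 59.7 CPM in PVALB cells and 90.6 ± 43.9 CPM in NGFC (SD, n = 6 each), a log2 difference of -2.93 for NGFC minus SST (SE 0.164, adjusted p = 2.92e-15 in edgeR). The kinase subunit Camk2d was higher in NGFC by 1.0 and the tyrosine kinase Fyn by 0.61, while Ptpn5, the phosphatase STEP, was at -1.47. List medians were -0.04 for NGFC minus SST and -0.06 for PVALB minus SST, against -0.01 and -0.02 for all genes.

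Trafficking genes and partners held the largest differences. Those of Actn2 were -5.45 for NGFC minus SST and -5.63 for NGFC minus PVALB (adjusted p = 0.000258 and 0.000501 in edgeR). Both rest on 1 Actn2 UMI in NGFC of the 6 WT libraries, so their size is uncertain. Lin7a, a PDZ adaptor, was at 383 ± 87.9 CPM in NGFC, 90.2 ± 19.2 CPM in PVALB cells and 36.5 ± 3.71 CPM in SST cells (SD, n = 6 each), 3.38 higher in NGFC than in SST cells on the log2 scale (SE 0.105, adjusted p = 2.15e-21 in edgeR). Neto1, an auxiliary subunit of kainate receptors that also binds NMDA receptors, was at 201 ± 82.7 CPM in SST cells and 43.8 ± 17.5 CPM in PVALB cells (SD, n = 6 each), with -2.15 for PVALB minus SST (SE 0.116, adjusted p = 3.04e-15 in edgeR). Nos1, the synthase bound to the receptor through PSD-95, was higher in NGFC than in PVALB cells by 3.70 (SE 0.244, adjusted p = 3.15e-13 in edgeR). In all, 5 of 13 were higher and 3 lower for NGFC minus SST, with a median of 0.38 against -0.01 for all genes, of which 25.5% passed. Of the 7 glycine and D-serine genes tested, only Slc1a4, a serine transporter, passed for NGFC minus SST, at -0.87, and 0 passed for NGFC minus PVALB in edgeR. Slc1a4 also passed for PVALB minus SST, at -0.68 (adjusted p = 0.000254 in edgeR), a call lost without WT hippocampal replicate 3 (0.0459). Slc1a4 for PVALB minus SST thus kept its call under 21 of 22 alternatives, and Actn2, run under 12, was called in each. The other class differences named here for the 4 lists kept their calls under all 22 alternatives.

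With genotype, 0 of the list genes tested passed in any class or region (49 tested in SST, 42 in PVALB, 44 in NGFC and 29 in OPC, in edgeR). In those contrasts 0.0 to 0.163% of all genes tested passed, so the 0 says little about the lists. Between WT regions 1 passed, Nos1 in SST cells, where 0.358% of all genes did. Nos1 was lower in hippocampal SST cells by a log2 change of -2.17 (SE 0.245, adjusted p = 0.00274 in edgeR), at 85.6 ± 75.4 CPM against 353 ± 286 CPM in cortex (SD, n = 3 each). Over 23 alternatives its adjusted p ran from 2.8e-16 to 0.317, the latter without the replicate block, and it was 0.0405, 0.0483 and 0.0552 without WT cortical replicates 1, 2 and 3 and 0.0153 and 0.0491 without WT hippocampal replicates 1 and 3. The call was also lost at resolution 0.6 (adjusted p = 0.0180 in edgeR) and without SST cluster 8, an alternative chosen after seeing the data (0.0131). The Chodl-rich cluster 22 made up 6.55% of WT cortical SST cells (5.27, 11.2 and 3.66% by library) and 1.56% of WT hippocampal SST cells (0.341, 2.52 and 0.285%), and its part in this difference was not tested.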

How the data were processed

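The authors made the deposited UMI counts with Cell Ranger (version 2.1.1 in the labels, 3.0.2 in the matrix headers) on mm10 with extended gene ends. The deposited files are 4 matrices of unscaled counts. Per the file headers they hold whole numbers, and per the labels the barcode and feature files of unit other list cells and genes. Libraries were told apart by barcode suffix, matched to replicates by the cell counts of the methods. In WT SST cells, gene-wise deviations of cortex and hippocampus libraries of 1 replicate correlated with r = 0.787, 0.718 and 0.434 over 6681 genes (description only).

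Kept cells had 200 to 6000 genes and less than 30% of UMIs from mitochondria. Seurat 5.3.0 in R 4.3.3 integrated them (2000 features without the subunit genes, 25 dimensions). Clusters at resolution 1.0 got their names from markers. UMIs were summed per library and class (at least 10 cells) and tested with edgeR 4.0.16 (TMM, filterByExpr, quasi-likelihood, region and genotype group plus replicate, Benjamini-Hochberg over all genes). Classes were compared in a joint fit with library as a block. Fits were tested on simulated data, with outcomes that are not given here. A gene passed when its adjusted p was under 0.01 and its natural-log change 0.1 or more (log2 0.144). Shares used two-sided exact tests at an adjusted p of 0.05. Shares of cells carry counting error, with 95% exact intervals in the tables, and a count of 0 allows 3 counts. Likeness used log2 of CPM plus 1, over genes at 20 CPM or more in at least 1 profile, 3 genes per subunit, of which 1 is not reported here. Partner genes named are called ones, at most 4 per list, direction and comparison. Library totals ran from 1488601 to 47338167 UMIs.

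Alternatives were DESeq2 1.42.0, no replicate block, an adjusted p of 0.05, library-size scaling, no low-count filter, sums of at least 20 cells, a stricter cell filter (1000 genes, 10% mitochondrial), Scrublet doublets removed (249 cells, scanpy 1.11.5), resolutions 0.6 and 1.4, subunit genes in the features, TH cells left out, thinning to 1000 UMIs, each library left out and, chosen after seeing the data, SST cluster 8 left out and the 2 regions averaged within a replicate for the Grin2a share. Other steps ran in Python 3.11.15 (pandas 2.3.3, numpy 2.4.6, matplotlib 3.10.9, scipy 1.17.1). The members and lists were chosen with earlier results of these data known.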

Additional observations from a re-analysis of the deposited data

Results flagged for a closer look

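The change of Camk2a with genotype, where Camk2a encodes a calcium/calmodulin kinase that binds NMDA receptors, differed between classes. In the joint edgeR fit the Grin1-null minus WT change in NGFC lay below that in PVALB cells by a log2 difference of -0.96 (SE 0.179, adjusted p = 0.00839). The change in PVALB cells lay above that in SST cells by 0.83 (SE 0.149, adjusted p = 0.00696). Camk2a was at 69.0 CPM in the 1 Grin1-null cortical NGFC library and 109 ± 74.9 CPM in WT (SD, n = 3), and at 64.0 ± 23.2 CPM (SD, n = 2) and 126 ± 69.7 CPM (SD, n = 3) in hippocampal NGFC. In PVALB cells it was at 105 ± 5.57 and 80.8 ± 40.7 CPM in cortex and at 87.5 ± 30.8 and 99.6 ± 60.5 CPM in hippocampus (SD, n = 2 and 3). In SST cells it was at 44.2 ± 2.76 and 74.0 ± 22 CPM in cortex and at 52.0 ± 12.2 and 80.1 ± 38.5 CPM in hippocampus (SD, n = 2 and 3).

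Both calls depended on single libraries and on the clustering, and the PVALB minus SST call also on the tool. The NGFC minus PVALB difference kept its call under 13 of 20 alternatives, with an adjusted p of up to 0.349 at resolution 0.6. In edgeR it was 0.182 without Grin1-null hippocampal replicate 2, 0.0133 and 0.0565 without WT cortical replicates 2 and 3, and 0.0198 without WT hippocampal replicate 3. The PVALB minus SST difference kept its call under 13 of 22, with an adjusted p of 0.563 without Grin1-null hippocampal replicate 2, 0.358 without Grin1-null cortical replicate 2, 0.0543 without WT cortical replicate 3 and 0.0462 without WT hippocampal replicate 3. DESeq2 gave it an adjusted p of 0.0255, and in edgeR resolution 0.6 gave 0.46 (adjusted p = 0.546). Without SST cluster 8, an alternative chosen after seeing the data, its adjusted p was 0.0124. With TH cells left out the adjusted p was 0.0145 for NGFC minus PVALB and 0.0180 for PVALB minus SST, and at resolution 1.4 it was 0.0152 and 0.0119. The cause of either difference was not tested.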

How the results depend on the processing

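No value that passed its test changed sign under any alternative. The Grin2a share difference with genotype in hippocampal SST cells, which had not passed, went from -1.66 to 0.0288 points without WT hippocampal replicate 3. Of the values for single subunit genes, 287 kept their side of the threshold and 5 lost it, all Grin1 between PVALB and SST cells. Another 21 passed only under the alternative, all of them Grin1 with genotype but for Grin3a of SST cells between regions. Of those for partner genes 1047 kept their calls and 76 lost them. Among levels thinned to 1000 UMIs, 167 stayed within the spread between libraries and 50 moved, 8 of 28 in SST cells, 9 of 28 in PVALB cells, 1 of 21 in NGFC, 11 of 28 in TH cells and 9 of 28 in oligodendrocytes. Groups with 1 library have no spread and were left out of this count. Counts of genes called stayed within 1.5-fold in 345 cases and moved in 149, listed below, and the cause was not tested.

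These means, in CPM, moved with thinning in the 3 interneuron classes and in TH cells. In Grin1-null cells, Grin1 went from 32.3 to 13.8 and from 21.5 to 18.8 in SST cells of cortex and hippocampus, and from 33.3 to 64.0 and from 19.5 to 24.3 in PVALB cells. Grin2a went from 21.0 to 11.6 in hippocampal SST cells and from 7.77 to 2.11 in cortical PVALB cells, and Grin2b from 368 to 294 and from 325 to 360 in the same 2 groups. Grin2d went from 48.7 to 64.0 and from 50.7 to 27.5 in PVALB cells of cortex and hippocampus, and Grin3a from 32.3 to 56.4 in hippocampal PVALB cells. In WT, Grin3a went from 20.8 to 34.0 in hippocampal PVALB cells and from 45.3 to 62.0 in cortical NGFC. Grin2c went from 1.07 to 2.14 in hippocampal SST cells and from 0.515 to 2.42 in cortical PVALB cells of WT, and from 1.35 to 2.30 in Grin1-null cortical SST cells. Grin3b in cortical SST cells went from 0.269 to 0 in WT and from 0.159 to 0.766 in Grin1-null. Among TH cells of Grin1-null cortex, Grin1 went from 13.1 to 8.47, Grin2b from 385 to 586, Grin2d from 33.6 to 69.8 and Grin3a from 49.5 to 16.9. In those of Grin1-null hippocampus, Grin1 went from 18.5 to 6.76, Grin2d from 63.3 to 51.5 and Grin3a from 34.9 to 69.3. In those of WT hippocampus, Grin1 went from 113 to 141, Grin2d from 54.7 to 81.8 and Grin3a from 39.8 to 18.2. In those of WT cortex, Grin2c went from 11.8 to 8.09. Before thinning, Grin1-null replicate 1 held only 10 TH cells in cortex and 16 in hippocampus, and 27 and 33 PVALB cells. Thinned means that include these libraries can shift with very few UMIs. Whether depth or such small counts moved them was not tested.

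The counts below are of genes called between Grin1-null and WT, unless regions (WT hippocampus minus cortex) are named. With DESeq2, SST cells gave 3 in cortex and 13 in hippocampus (0 and 0 as reported), and 218 between regions (46). PVALB cells gave 14 and 2 (4 and 0) and 48 between regions (16). NGFC gave 20 in hippocampus (0), 1 for the difference between regions (0) and 17 between regions (4). OPC gave 0 and 2 (5 and 12). The change differences between classes gave 1 for NGFC minus SST (0), 30 for NGFC minus PVALB (17) and 6 for PVALB minus SST (11).

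An adjusted p of 0.05 gave 1 and 1 in SST cells and 197 between regions, 18 and 3 in PVALB cells and 49 between regions. It gave 36 in OPC of hippocampus, 49 between regions in OPC (24), and 3, 50 and 56 for the 3 change differences in the order above. No filter on low counts gave 55, 97 and, for the difference between regions, 2 in SST cells, and 436 between regions. PVALB cells gave 79, 46 and 7, and 133 between regions. NGFC gave 25, 76 and 2, and 62 between regions. The change differences were 44, 107 and 118.

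With no replicate block, counts between regions were 12 in SST cells, 7 in PVALB cells, 0 in NGFC and 0 in OPC, and with genotype 1 in cortical PVALB cells and 0 and 0 in OPC. Resolution 0.6 gave 26 between regions in SST cells, 1 in cortical PVALB cells, 2 and 4 in OPC with 12 between regions, and 0 and 1 for the change differences of NGFC minus PVALB and PVALB minus SST. Resolution 1.4 gave 0 in cortical PVALB cells and 6 for the PVALB minus SST change difference. The stricter cell filter gave 1 in cortical OPC and 14 between regions in OPC. Subunit genes in the features gave 1 between regions in NGFC, and leaving out TH cells 77 between regions in SST cells. Without SST cluster 8, chosen after seeing the data, 24 genes passed between regions in SST cells and 7 for the PVALB minus SST change difference.

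Leaving out each library in turn gave 0 to 2 in cortical and 0 to 1 in hippocampal SST cells, 0 to 0 for the difference and 0 to 100 between regions. PVALB cells ran over 0 to 18, 0 to 2, 0 to 0 and 2 to 30 in the same order, NGFC over 0 to 1, 0 to 7, 0 to 1 and 0 to 30, and OPC over 2 to 13, 1 to 32, 0 to 3 and 1 to 47. The WT class contrasts gave counts of 2255 to 3129 (NGFC minus SST), 1920 to 2716 (NGFC minus PVALB) and 1795 to 2675 (PVALB minus SST). The change differences ran over 0 to 3, 0 to 23 and 0 to 30. The Grin2a share differences with genotype, in percentage points, ran from -3.18 to -1.18 and from -2.94 to 0.0288 in SST cells of cortex and hippocampus. They ran from -3.01 to -1.87 and from -1.74 to -0.243 in PVALB cells, and from -4.58 to -0.327 and from 3.41 to 11.7 in NGFC. Between WT classes they ran from 19.4 to 21.9, from 24.4 to 27.1 and from -5.68 to -4.85, each with a lost call. With regions averaged within a replicate, chosen after seeing the data, the differences were 20.5 (NGFC minus SST), 25.6 (NGFC minus PVALB) and -5.11 (PVALB minus SST), with an exact p of 0.25 each and the calls lost.

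Cortical NGFC and OPC contrasts could not be fitted without Grin1-null cortical replicate 2, the joint fit has no version without its library block, and DESeq2 gave some genes no adjusted p. With library-size scaling the median of all genes between regions in OPC was -0.17 against 0.02. Counts of Grin2c and Grin3b failed the filter, and neither gene was tested. Grin1-null groups had 2 libraries, or 1 for NGFC and OPC of cortex, so a p that missed the threshold does not show equal levels. Replicate 1 differs from the others in chemistry. The joint class fit treats the 2 regions of a replicate as separate libraries.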
